A study of Mus musculus with 6 samples.

Results

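General capillary cells are the endothelial cells that line most of the alveolar capillary bed, and they lie beside the aerocytes, the large and thin capillary cells specialised for gas exchange. General capillary cells carry GPIHBP1, the anchor of lipoprotein lipase on the vessel wall, and the receptor tyrosine kinase KIT. Along the path of blood flow they grade from cells near the arterioles to cells near the venules. Near arterioles, endothelium is known for Notch and ephrin-B2 signalling, SOX17 and CXCL12, and near venules for VEGFC, NR2F2 and von Willebrand factor. Semaphorin 3G, a secreted guidance protein, marks the arterial end.

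The arterial-side general capillary cells described here were chosen by their raw UMI counts (UMIs are unique molecular identifiers, 1 for each captured RNA molecule). A barcode needed 500 or more genes and 1000 or more UMIs, of which no more than 15% could be mitochondrial. It also needed at least 1 UMI of Cdh5 (VE-cadherin), 2 of Gpihbp1, 1 of Kit and 1 of Sema3g, none of Vegfc, Slc6a2, Ptprc (CD45) or Epcam, and at most 1 of the aerocyte gene Ednrb. This left 10482 of 94392 barcodes in all, or of 18835 general capillary barcodes. The libraries labelled p16-DTR held 1848, 1773 and 2080 of these cells, and the control libraries held 1412, 1796 and 1573. Because those 9 genes chose the cells, their levels are given as a description.

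The 6 libraries came from lungs of 21-month-old male C57BL/6 mice, 1 library per mouse, and were made by droplet single-cell RNA sequencing with 3′ GEM-X chemistry. The 3 p16-DTR mice carried p16-CreERT2 and R26-LSL-DTR, so that tamoxifen lets the p16 promoter switch on a diphtheria toxin receptor from the Rosa26 locus. The 3 control mice carried p16-CreERT2 without the receptor. Both groups received 5 days of tamoxifen and, 2 weeks later, 5 days of diphtheria toxin, and then recovered for 2 weeks. The input of a library was 20000 cells sorted as CD45-negative plus 9000 sorted as CD45-positive, so a share of all cells is set by the sort, and only endothelial shares are compared below. The design is meant to remove cells with an active p16 promoter.

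The selected cells had a median of 14919.5 to 16203.5 UMIs and 4275.5 to 4416.5 genes by library, and their summed UMIs were 22480863 to 34781804. Predicted doublets made up 2.98% to 4.87% of them by library. Any 2 libraries shared 59 to 94 barcode sequences among all barcodes and 0 to 2 among the selected cells. In a principal component analysis of the summed profiles, the first component (40.7% of the variance) separated the groups, and control replicate 3 stood apart on the second (19.2%).

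Markers that the rule did not use were read in the selected cells as a description. Bmp6, a bone morphogenetic protein made by capillary endothelium, had a UMI in 98.6% to 99.4% of the cells by library. Sox17, an arterial transcription factor, had one in 89.7% to 94.0%, and Edn1, the precursor of the vasoconstrictor endothelin 1, in 83.0% to 90.4%. These markers were given with the population. Venous-side cells also held them (levels below), so their detection alone does not tell the sides apart. The large-vessel arterial gene Gja5 (connexin 40) had a UMI in only 14.3% to 19.3% of the cells, and the venous transcription factor Nr2f2 in 7.2% to 12.3%. The venous selectin Selp had a UMI in 0.433% to 1.14%. Other genes of the venous list were found more widely, with a UMI of Vwf in 67.6% to 79.1%, of Ephb4, the receptor of ephrin-B2, in 90.4% to 92.6% and of Prss23 in 35.3% to 52.5%. Ephb4 was at 226 ± 9.77 CPM (counts scaled to a common total of UMIs; SD, n = 6 libraries) against 281 ± 38.6 in venous-side general capillary cells.

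Sema3g (chr14:31217860-31230352, plus strand, GRCm38) was found in 90.8% ± 0.967 (SD, n = 3) of all general capillary barcodes in the p16-DTR libraries and 91.0% ± 1.01 in the controls. It therefore removed few cells, and the absence of Vegfc did most of the dividing. Among general capillary barcodes, 5816 failed only by holding Vegfc, 556 only by lacking Sema3g and 167 only by holding Slc6a2. The 5816 had 538 CPM of Efnb2 (mean of 6 libraries) against 1048 in the selected cells, and 455 CPM of Cxcl12 against 772. Just inside the limits, the 683 cells with 1 Sema3g UMI had 706 CPM of Efnb2 and 411 of Cxcl12, so they lay below the selected cells as a whole. Just outside, the 1067 barcodes with 1 Vegfc UMI that met every other condition had 679 CPM of Efnb2 and 482 of Cxcl12. A further 1251 barcodes failed only by holding Ptprc, and 58 failed only by Epcam. The surfactant gene Sftpc was at 61969, 41660 and 30156 CPM in the 12, 15 and 10 such barcodes of the p16-DTR libraries and at 96.3, 95.7 and 100.6 CPM in the 4, 9 and 8 of the controls, against a mean of 85.6 in the selected cells.

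The arterial-side cells had higher levels of several arterial-zone genes than venous-side general capillary cells, while genes of large arteries went both ways. The 1146 venous-side cells were chosen by the same conditions, but with no Sema3g and at least 1 UMI of Vegfc or Slc6a2. Efnb2, the arterial ephrin-B2 ligand, was at 1048 ± 91.9 CPM (SD, n = 6 libraries) in arterial-side cells, 519 ± 58.8 in the 6651 cells that held both Sema3g and a venous gene, and 209.5 ± 22.6 in venous-side cells. Its 6 arterial-side values, from 865 to 1108 CPM, all lay above the 6 venous-side values, from 178 to 240. Cxcl12, a chemokine for cells with the receptor CXCR4, was at 772 ± 114, 453 ± 36.9 and 284 ± 27.5 CPM in the same order. Dll4, the arterial Notch ligand, was at 111 ± 12.1, 49.9 ± 6.87 and 22.9 ± 6.56 CPM. Hey1, a Notch target, was at 179 ± 31.9, 98.1 ± 24.6 and 56.2 ± 16.3 CPM. In each of these 4 genes the cells with both signatures lay between the others. Of the list for large arteries, Bmx (32.4 ± 9.41 against 4.62 ± 2.71 CPM), Gja5 (23.4 ± 3.25 against 6.95 ± 5.61) and the sulfatase gene Sulf1 (89.9 ± 15.1 against 47.2 ± 14.5) were higher in arterial-side than in venous-side cells in all 6 libraries. The elastic fibre genes Fbln5 (6.90 ± 1.32 against 74.4 ± 28.8 CPM) and Eln (155 ± 25.0 against 332 ± 133) were lower in all 6, as was the cadherin Cdh13 (1.18 to 6.27 against 4.97 to 14.1 CPM by library). Mgp, a calcification inhibitor, was lower in 5 of the 6 libraries (178 ± 68.8 against 328 ± 199 CPM).

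Of the markers given with the population, Bmp6, Sox17 and Edn1 separated the sides less. Bmp6 was at 1320 ± 228 CPM in arterial-side and 761 ± 193 in venous-side cells, Sox17 at 326 ± 36.8 and 201 ± 33.8, and Edn1 at 647 ± 135 and 408 ± 143. Cells with both signatures were close to the arterial side in Bmp6 (1191 ± 184 CPM) and Sox17 (317 ± 42.0). Vegfa, the main angiogenic growth factor, was higher in arterial-side cells (667 ± 33.4 against 309 ± 26.7 CPM), and Plvap, which forms the diaphragms of fenestrae and caveolae, overlapped (1000 ± 168 against 929 ± 205). Genes of at least 50 CPM that no list held were ranked by their smallest library ratio of arterial-side to venous-side cells. The largest were those of Mgll, the monoacylglycerol lipase (163 ± 33.7 against 14.9 ± 6.89 CPM), Atp13a3, a polyamine transporter (108 ± 39.0 against 10.2 ± 6.79), and Pcsk5, a proprotein convertase (385 ± 97.7 against 82.1 ± 36.5). These genes were higher still on average in the arterial barcodes of the next paragraph (432 ± 101, 444 ± 176 and 520 ± 141 CPM). Mgll was also higher in aerocytes (648 ± 55.5 CPM), where Atp13a3 (16.9 ± 10.3) and Pcsk5 (14.7 ± 7.69) were lower. On the venous side stood Rarb, a retinoic acid receptor also on no list (4.09 ± 0.627 CPM in arterial-side against 256 ± 66.5 in venous-side cells). Of the venous list, Prss23, a serine protease (70.5 ± 13.2 against 828 ± 186), and Vwf (363 ± 64.4 against 1706 ± 400) were higher in venous-side cells. Vwf was also high in the arterial barcodes described next (2097 ± 469 CPM). These levels carry no test, since the cells were divided by neighbouring genes.

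Against aerocytes and arterial cells the selected cells were further apart in some genes and overlapped in others. Aerocytes were taken as the 2230 endothelial barcodes with at least 2 Ednrb and 1 Car4 UMIs, no Kit and at most 1 Gpihbp1. They had 3057 ± 185 CPM of Car4, a carbonic anhydrase, against 145 ± 11.6 in arterial-side cells, a difference set by the gate. Bmp6, which is not in the gate, was at 78.8 ± 30.6 CPM in aerocytes against 1320 ± 228. Arterial cells were taken as the 279 barcodes with at least 5 Cdh5 and 2 Gja5 UMIs, at most 1 Gpihbp1 UMI and no Kit, Slc6a2, Ptprc or Epcam. Their Gja5, set by the gate, was at 322 ± 76.2 CPM against 23.4 ± 3.25 in arterial-side capillary cells. The kinase Bmx, which is not in the gate, was at 510 ± 78.1 against 32.4 ± 9.41 CPM. Dll4 (121 ± 17.6 against 111 ± 12.1 CPM) and Gja4, connexin 37 (189 ± 49.0 against 159 ± 32.5), overlapped between these 2 populations. Other genes of the arterial-side list were lower on average in the arterial barcodes, with Sox17 at 70.1 ± 19.0 against 326 ± 36.8 CPM, Hey1 at 57.8 ± 17.2 against 179 ± 31.9, Cxcl12 at 292 ± 169 against 772 ± 114, Efnb2 at 668 ± 139 against 1048 ± 91.9 and Edn1 at 305 ± 139 against 647 ± 135. Predicted doublets made up 9.38% to 36.0% of these arterial barcodes by library. The arterial barcodes also held 174 ± 44.6 CPM of the fibroblast collagen Col1a2, so their values are not those of pure endothelium.

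**Figure D1:**
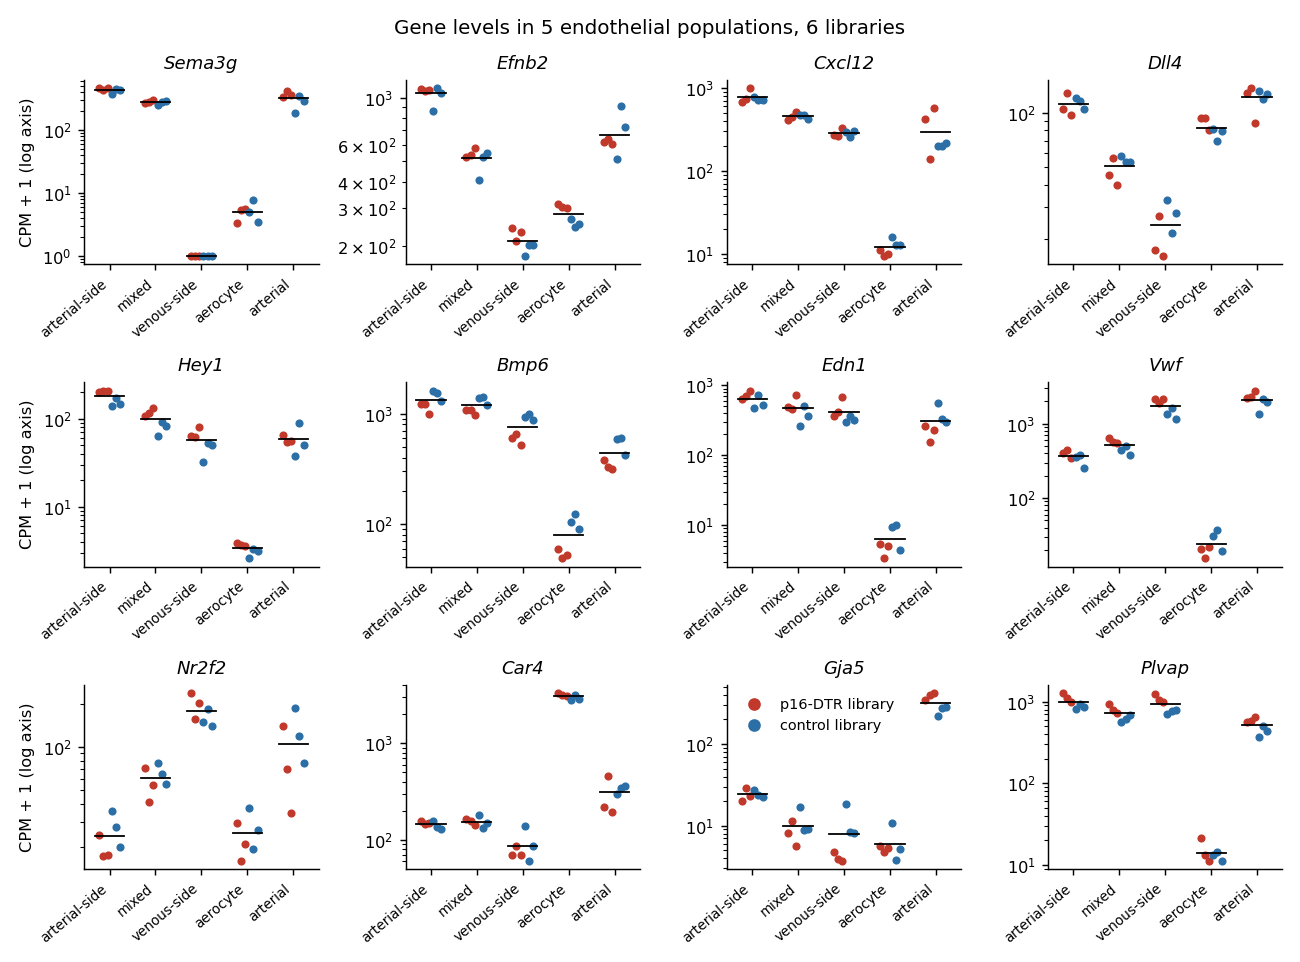
CPM plus 1 (log axis) of 12 genes in summed cells of 5 endothelial populations; each point is 1 of 6 libraries and each bar is the mean of 6. Efnb2, Cxcl12, Dll4 and Hey1 were highest in arterial-side, lower in mixed and lowest in venous-side cells among general capillary cells, while Nr2f2 was highest in venous-side cells and Vwf in the arterial and venous-side cells.

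The arterial-side cells were themselves graded. Within each library the cells were divided into 4 bins of equal number by Sema3g as a share of their UMIs, which gave bins of similar depth (library medians from 14843 to 16466 UMIs). Sema3g made the division, so the values are a description. From the lowest to the highest bin, Efnb2 went from 750 ± 78.8 to 979 ± 90.8, 1134 ± 108 and 1356 ± 98.3 CPM (SD, n = 6 libraries). Cxcl12 went from 478 ± 77.0 to 1122 ± 219 CPM, Dll4 from 87.4 ± 10.9 to 141 ± 20.2, Hey1 from 138 ± 22.9 to 216 ± 41.0 and Gja4 from 122 ± 19.5 to 193 ± 42.4. Vwf, listed among the venous genes, went up along the same order, from 244 ± 58.3 to 532 ± 116 CPM. Nr2f2 went down from 56.3 ± 17.6 to 6.22 ± 1.62 CPM, and Aplnr, the apelin receptor of general capillary cells, from 63.0 ± 13.6 to 25.8 ± 6.39. On average, Bmp6 moved mainly between the first bin (1167 ± 165 CPM) and the second (1359 ± 223) and ended at 1384 ± 278. In control replicate 1 it rose in every bin, from 1353 to 1820 CPM. Kit changed little on average, with 475 ± 31.4 CPM in the first and 511 ± 35.3 in the last bin.

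**Figure D2:**
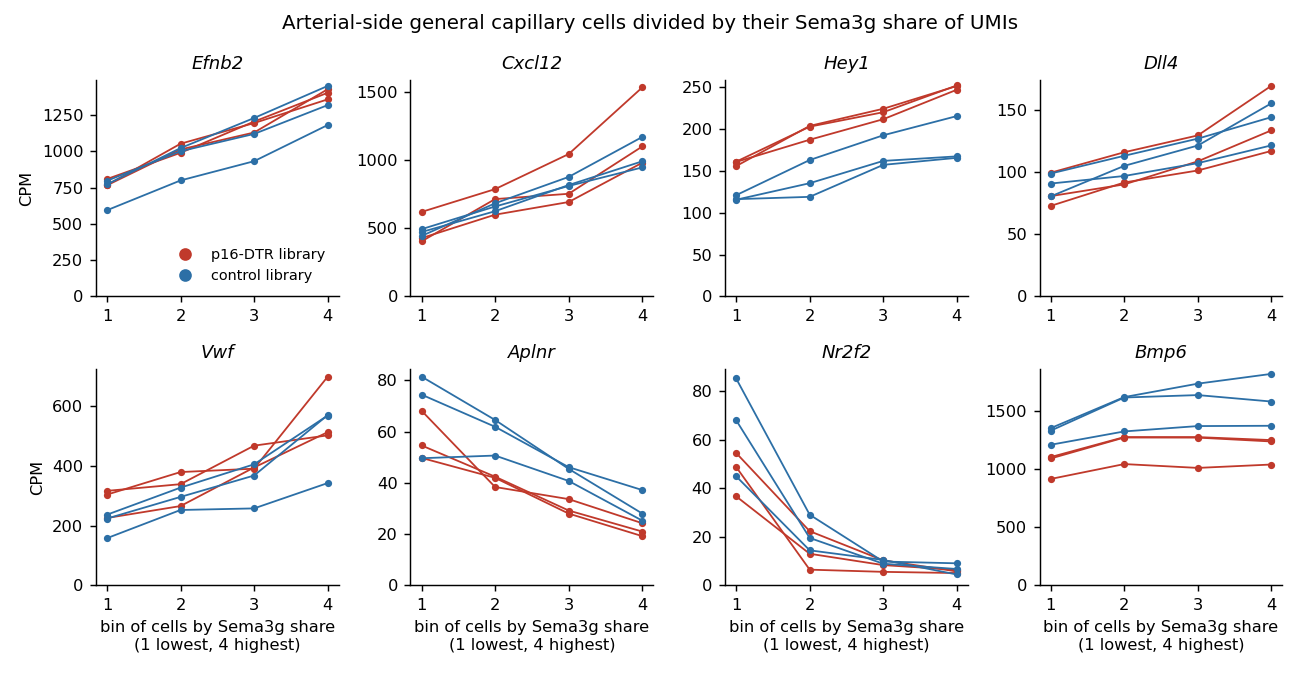
CPM of 8 genes in arterial-side general capillary cells divided within each library into 4 bins by the Sema3g share of UMIs; each line is 1 of 6 libraries and the axes start at 0. Efnb2, Cxcl12, Hey1, Dll4 and Vwf were higher and Aplnr and Nr2f2 lower in the highest bin, while Bmp6 was nearly level on average from the second bin on.

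The arterial-side cells made up similar shares of the general capillary cells in both groups. Of endothelial barcodes (Cdh5 present, Ptprc and Epcam absent) they were 35.9% ± 2.55 (SD, n = 3) in the p16-DTR and 31.2% ± 3.34 in the control libraries (difference 4.64 percentage points, exact two-sided permutation p = 0.2), and the groups overlapped. Of general capillary barcodes they were 55.9% ± 1.27 and 55.2% ± 2.70 (exact permutation p = 0.8). The general capillary cells as a whole were 64.1% ± 3.15 of endothelial barcodes in p16-DTR and 56.5% ± 3.21 in control libraries, with no overlap (exact permutation p = 0.1, the smallest that 3 against 3 libraries allow). The endothelial denominator was not pure. Its 1633 barcodes with Gja5, no Kit or Slc6a2 and at most 1 Gpihbp1 UMI had 242 ± 45.3 CPM of Cdh5 and 624 ± 78.4 of the fibroblast collagen Col1a2. Arterial-side cells had 2015 ± 62.5 and 27.9 ± 9.18 CPM. The part of such barcodes in the share differences was not tested. Slc6a2, the noradrenaline transporter of venous-side cells, had a UMI in 9.13% ± 1.12 of general capillary barcodes in p16-DTR and 6.21% ± 1.30 in control libraries, also without overlap. Vegfc had a UMI in 40.2% ± 0.780 and 40.7% ± 2.85 of these barcodes. Both genes are in the rule, so these shares, read without thinning, are a description. Cells were also thinned to 10000 UMIs, with shallower ones left out and the conditions applied after thinning. The arterial-side share of endothelial barcodes was then 39.6% ± 2.91 and 34.2% ± 3.77 (exact permutation p = 0.2). The p16-DTR libraries then had 4259, 4582 and 4699 endothelial barcodes, beside 5108, 5343 and 5437 without thinning. The controls had 3903, 4388 and 4631, beside 4733, 5126 and 5459. Barcodes that lost their Ptprc or Epcam UMIs in thinning could enter, so the thinned set is not a subset.

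Cdkn2a (chr4:89274471-89294653, minus strand, GRCm38), which encodes the cell cycle inhibitor p16 and the protein ARF, drives the Cre recombinase and was read first. In summed arterial-side cells it was at 3.73, 4.63 and 3.03 CPM in libraries labelled p16-DTR, against 0.645, 0.394 and 0.431 CPM in control libraries. These and the CPM values of group comparisons below were scaled by the TMM factors of the fit. The exceptions are the summed markers of other cell types and the genes of the interaction tests, which are CPM without this scaling. All 3 libraries labelled p16-DTR lay above all 3 controls, a log2 difference of 2.96 ± 0.27 (SE; edgeR quasi-likelihood test, adjusted p = 0.0211). Cdkn2a was thus not lower in the libraries labelled p16-DTR, and the group names used here are those of the labels. Whether cells were removed was not tested. The counts were 343 UMIs in 5701 cells and 38 UMIs in 4781 cells, and a gene count does not separate the p16 and ARF transcripts. Without p16-DTR replicate 1, p16-DTR replicate 3 or control replicate 3 the adjusted p was 0.0993, 0.0525 or 0.0513.

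Per cell, thinned to 5000 UMIs, 1.53% ± 0.310 of arterial-side cells (85 of 5567) had a Cdkn2a UMI in the p16-DTR libraries and 0.219% ± 0.0630 (10 of 4666) in the controls (exact two-sided permutation p = 0.1, the smallest possible). The 134 and 115 cells under 5000 UMIs were left out. Without thinning the shares were 4.47% ± 0.855 and 0.563% ± 0.0702. Neutrophils, taken as a cell type that should lack the transcript, had 1.39% ± 0.514 (28 of 2132) in the p16-DTR libraries and 0 of 1653 in the controls, at median depths of 11180.5 and 12946 UMIs against 15848 and 15525 in the arterial-side cells. The count of 0 allows a share of up to 0.365%, 0.708% and 0.735% in control replicates 1, 2 and 3 (3 counts per library, counting error only). The arterial-side share in the p16-DTR libraries was thus close to that of neutrophils. With predicted doublets left out the shares there were 1.40% ± 0.195 (75 of 5346) in arterial-side cells and 0.921% ± 0.380 (17 of 1900) in neutrophils. The part of free Cdkn2a RNA in droplets was not tested, so these UMIs are not read as expression by the arterial-side cells. Venous-side cells, thinned in the same way, had 1.53% ± 0.944 (10 of 635) in the p16-DTR libraries and 0 of 451 in the controls. Aerocytes stood apart in both groups, with 9.91% ± 1.21 and 9.38% ± 3.47 (exact permutation p = 0.9). The tdTomato entry of the feature list had 30 UMIs in the 5701 arterial-side cells of the p16-DTR libraries. It had 5 in the 662 venous-side cells, 5 in the 934 aerocytes and 2 in the 2391 neutrophils there. In the controls it had 0 in each of these populations, and the labels do not say which construct carries it. The mouse Hbegf gene, whose product is the natural counterpart of the toxin receptor, was at 31.6, 27.5 and 27.5 CPM against 54.9, 39.98 and 46.1 (log2 difference -0.70 ± 0.12, edgeR adjusted p = 0.067). Cdkn1a, which encodes the p53-induced inhibitor p21, was at 654, 504 and 878 CPM against 321, 440 and 557, and the groups overlapped (log2 difference 0.63 ± 0.24, edgeR adjusted p = 0.196).

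**Figure D3:**
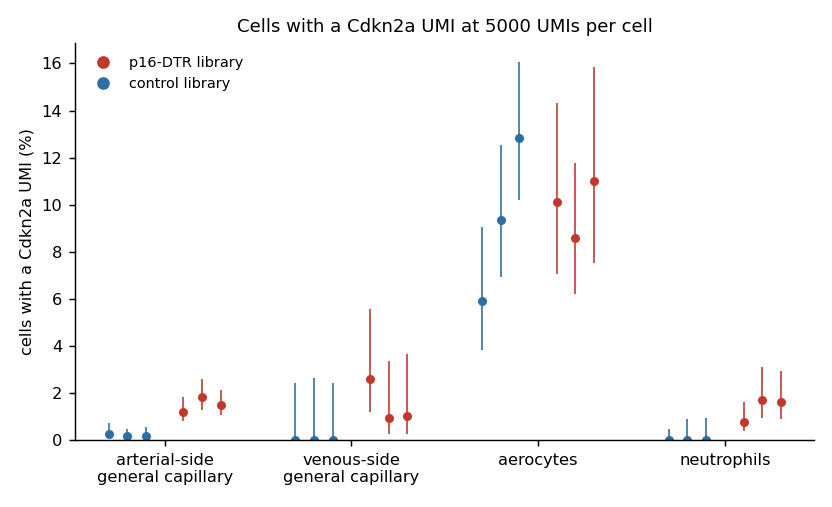
Percent of cells with a Cdkn2a UMI after thinning cells to 5000 UMIs and leaving out shallower ones, for 4 cell populations; each point is 1 library and bars are 95% Wilson intervals, which cover counting error only. Arterial-side cells, venous-side cells and neutrophils of the p16-DTR libraries lie at 1.53%, 1.53% and 1.39% on average, and aerocytes of both groups lie near 10%.

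Between the genotypes, 24 genes passed the test in arterial-side cells. In the libraries labelled p16-DTR, the immediate early transcription factor Egr3, the phosphatase Dusp5, the kinase Plk2 and the cold-inducible RNA-binding protein Cirbp were lower. The antiviral synthetase Oas2, the guidance ligand Sema3f, the kinase Pdpk1 and the transporter Atp13a3 were higher. Of 14928 genes tested with edgeR (Benjamini-Hochberg adjusted p under 0.05), 13 were higher (0.0871%) and 11 lower (0.0737%). For 16 of the 24 the adjusted p was 0.04998, and a single library could end most calls: without p16-DTR replicate 3, 1 gene was called, and without control replicate 1, 4 were. Oas2 was the only gene called in each of the 6 fits that left out 1 library. DESeq2 called 386 higher and 448 lower (5.59% of genes), 23 of the 24 among them. An unadjusted p under 0.05 was reached by 3192 genes (21.4%). The library values of the groups did not overlap for 14.0% of genes in the higher and 13.3% in the lower direction. Without TMM scaling these shares were 8.39% and 18.5%.

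Egr3 (chr14:70077203-70082614, plus strand), an immediate early transcription factor, was at 6.77, 6.89 and 7.60 CPM in the p16-DTR libraries and at 21.2, 16.9 and 18.5 CPM in the controls. The groups were far apart, with a log2 difference of -1.41 ± 0.11 (SE; edgeR adjusted p = 0.0112, and 0.0525 without p16-DTR replicate 3). Dusp5 (chr19:53529109-53542431, plus strand), a phosphatase that switches off the nuclear MAP kinase ERK, was at 7.15, 8.30 and 8.13 against 16.4, 13.0 and 17.6 CPM (log2 difference -0.99 ± 0.13, edgeR adjusted p = 0.04998). Cldn12 (chr5:5489537-5514958, minus strand), a claudin, was at 12.8, 14.2 and 12.9 against 27.0, 21.1 and 29.2 CPM (-0.95 ± 0.12). Plk2 (chr13:110395046-110400844, plus strand), a stress-induced polo-like kinase, was at 367, 432 and 399 against 589, 563 and 596 CPM (-0.54 ± 0.07). None of these 4 genes had a p16-DTR library as high as any control library. Cirbp was at 45.5, 39.3 and 48.6 against 78.0, 74.0 and 73.3 CPM (-0.76 ± 0.08, edgeR adjusted p = 0.0317). Rps6ka5, a kinase that phosphorylates histone H3 and CREB, was at 36.1, 36.2 and 36.7 against 55.4, 52.2 and 51.2 CPM (-0.54 ± 0.05, edgeR adjusted p = 0.0211). The other genes called lower were Sh3gl2 (-0.70), Rtn1 (-0.74), Ccdc138 (-0.58), 1110051M20Rik (-0.43) and, at under 10 CPM, Gm31834 (-1.34), as log2 differences. With 1 library left out, Dusp5 and Cldn12 were called only without control replicate 2 (edgeR adjusted p of 0.0385 and 0.0336), and without p16-DTR replicate 3 both had an adjusted p of 0.169.

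The promoters of Dusp5, Cldn12 and Plk2 are shown because these genes were called lower and their windows hold a motif known from immediate early promoters. These motifs are the CArG box bound by serum response factor and the cAMP response element TGACGTCA. Each window is the 250 bases before a RefSeq start (GRCm38.p6), 5′ to 3′ on the gene's strand, with matches to these 2 motifs in capitals. The Dusp5 window is chr19:53528895-53529144 (plus strand), the Cldn12 window chr5:5514977-5515226 (minus strand) and the Plk2 window chr13:110394794-110395043 (plus strand).
Dusp5: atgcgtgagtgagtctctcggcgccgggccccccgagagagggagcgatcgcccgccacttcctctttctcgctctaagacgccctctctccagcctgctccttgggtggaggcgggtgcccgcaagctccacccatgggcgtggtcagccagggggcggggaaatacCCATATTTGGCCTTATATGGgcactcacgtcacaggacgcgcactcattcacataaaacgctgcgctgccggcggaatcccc
Cldn12: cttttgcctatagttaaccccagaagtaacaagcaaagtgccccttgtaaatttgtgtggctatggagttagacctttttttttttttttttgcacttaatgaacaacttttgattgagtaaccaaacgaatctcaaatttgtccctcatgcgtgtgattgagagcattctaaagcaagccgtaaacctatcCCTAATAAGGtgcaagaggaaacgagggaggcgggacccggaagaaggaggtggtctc
Plk2: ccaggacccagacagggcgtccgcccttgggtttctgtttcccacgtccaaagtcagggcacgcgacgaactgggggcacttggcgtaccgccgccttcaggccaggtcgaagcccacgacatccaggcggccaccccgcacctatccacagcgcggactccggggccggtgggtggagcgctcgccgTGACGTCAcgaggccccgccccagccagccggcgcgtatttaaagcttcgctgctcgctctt
Dusp5 holds 2 CArG boxes side by side, which begin 82 and 72 bases before the start, Cldn12 holds 1 that begins 58 bases before the start shown (RefSeq has 3 Cldn12 starts, and the same box begins 185 and 245 bases before the other 2), and Plk2 holds 1 TGACGTCA that begins 62 bases before it. Over the 32851 RefSeq windows of the same length and both strands, 1.47% hold a CArG box and 1.55% a TGACGTCA. Of the 9 genes called lower with a window in the table, 2 hold a CArG box and 2 (Plk2 and Sh3gl2, which is not printed) a TGACGTCA. Of the 6 genes called higher with a window, 0 hold a CArG box or a TGACGTCA. Of the 17 immediate early genes with a window, 2 hold a CArG box (Egr2 and Zfp36) and 3 a TGACGTCA (Btg2, Dusp1 and Maff). A gene can have more than 1 window, so counts of genes and shares of windows are unlike measures. Also searched were TGGGAA, the core of the RBPJ site (21.6% of windows, 2 of the 9 genes called lower, Plk2 and Rps6ka5, with the Plk2 match beginning 212 bases before the start and not in capitals), and ACAATG, a SOX site core (10.7% of windows, 1 of the 9). Of the 6 genes called higher with a window, 2 hold TGGGAA (Cdkn2a and Pdpk1) and 1 holds ACAATG (Pdpk1). In the windows printed the marked matches do not overlap, and a match is a description of letters, not a bound site.

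Oas2 (chr5:120730333-120749853, minus strand) was at 27.7, 28.1 and 24.6 CPM in the p16-DTR libraries and at 12.8, 12.9 and 13.5 CPM in the controls, a log2 difference of 1.04 ± 0.07 (SE; edgeR adjusted p = 0.0112). Pdpk1, the kinase that activates AKT, was at 111, 116 and 116 against 74.0, 72.8 and 78.8 CPM (0.60 ± 0.05, edgeR adjusted p = 0.0124). Sema3f (chr9:107681500-107710475, minus strand), a secreted semaphorin that signals through neuropilin 2, was at 156, 145 and 163 against 106, 112 and 112 CPM (0.49 ± 0.06, edgeR adjusted p = 0.04998). In all 3 genes the spread within a group was small beside the gap. Atp13a3, which was also higher in arterial-side than in venous-side cells, was at 118, 168 and 144 against 76.5, 73.6 and 73.4 CPM (0.94 ± 0.12). Synpo, an actin-binding protein, was at 43.8, 38.3 and 45.5 against 13.0, 20.8 and 19.8 CPM (1.24 ± 0.16), and Gda, guanine deaminase, at 18.3, 31.4 and 26.4 against 9.98, 8.79 and 8.79 (1.47 ± 0.19). Ly6c1, a surface protein of capillary endothelium, was at 989, 948 and 1080 against 720, 693 and 701 CPM (0.51 ± 0.07). The other genes called higher were Gm14005 (0.99), Krt80 (0.62), Pmepa1 (0.50), Herpud1 (0.49) and, at under 10 CPM, Aldh1a7 (2.82), as log2 differences. Every called gene had groups that did not overlap.

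**Figure D4:**
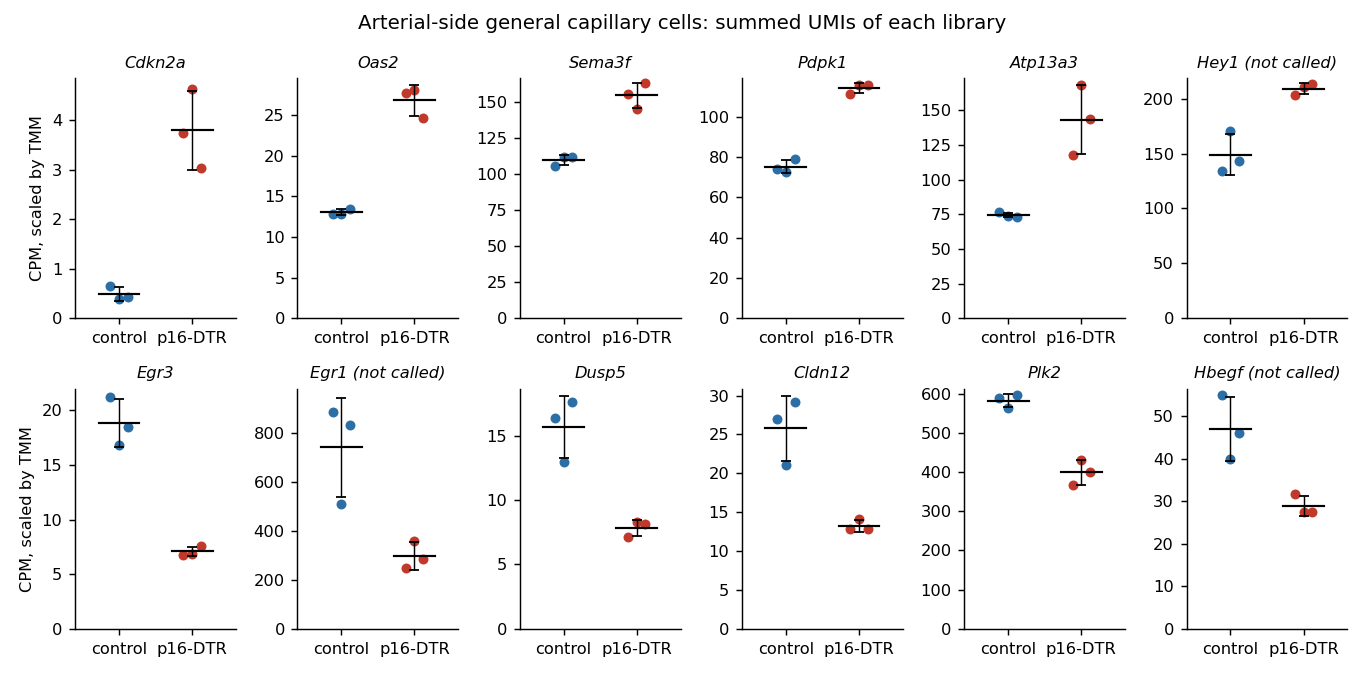
TMM-scaled CPM of 12 genes in summed arterial-side general capillary cells; points are the 3 libraries of each group, bars the mean and error bars the SD, on axes that start at 0. The groups do not overlap in any of the 12 genes, of which Hey1, Egr1 and Hbegf did not pass the test (edgeR adjusted p of 0.0676, 0.067 and 0.067).

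The listed genes of the arterial side passed the test in neither direction, while Atp13a3, which is on no list, was called higher. Of the 9 tested genes of the arterial-side list, 0 were called (0.161% of all genes were), 1 did not overlap upward and 1 downward (14.0% and 13.3% of all genes), and the median log2 difference was 0.15, against -0.01 over all genes tested. Efnb2 was at 1112, 1091 and 1116 CPM in the p16-DTR and 837, 1101 and 1043 CPM in the control libraries (edgeR adjusted p = 0.412). Dll4 was at 104, 130 and 98.0 against 116, 114 and 103 CPM (edgeR adjusted p = 0.984). Sox17 (304, 327 and 405 against 303, 291 and 326 CPM) and Edn1 (644, 707 and 861 against 461, 711 and 512 CPM) had their highest value in p16-DTR replicate 3 (edgeR adjusted p of 0.388 and 0.239). Bmp6 and Hey1 did not overlap between the groups and pointed in opposite directions. Bmp6 was at 1241, 1234 and 1026 against 1570, 1527 and 1305 CPM (log2 difference -0.33 ± 0.10, edgeR adjusted p = 0.14), and Hey1 at 204, 211 and 213 against 134, 170 and 143 CPM (0.49 ± 0.09, edgeR adjusted p = 0.0676).

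Most immediate early genes had lower values in the p16-DTR libraries, and 1 passed the test. Of 21 tested, 0 were called higher and 1 lower (Egr3), and 18 of the 21 log2 differences were negative, with a median of -0.58. Over all genes tested, 0.0737% were called lower, and 7631 of 14928 differences were negative, with a median of -0.01. In 9 the groups did not overlap, all with lower p16-DTR values, where 13.3% of all genes did not overlap in that direction. Egr1 was at 247, 360 and 287 against 883, 510 and 831 CPM (log2 difference -1.32 ± 0.22, edgeR adjusted p = 0.067), with control replicate 2 nearest to the other group. Nr4a1, a nuclear receptor, was at 59.0, 52.5 and 52.7 against 83.3, 80.7 and 114 CPM (-0.76 ± 0.13, edgeR adjusted p = 0.0676). Btg2, an antiproliferative gene that p53 also induces, was at 521, 582 and 528 against 853, 673 and 917 CPM (-0.58 ± 0.11, edgeR adjusted p = 0.0757). These genes also respond to tissue dissociation, whose part in the difference was not tested.

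Of the Notch pathway list, 17 genes were tested and 0 called, and in 6 the groups did not overlap, all with higher p16-DTR values (14.0% of all genes did so; median log2 difference over the 17 of 0.16). Besides Hey1 they included the receptors Notch1 (295, 318 and 325 against 232, 260 and 282 CPM, edgeR adjusted p = 0.126) and Notch4 (183, 165 and 179 against 123, 149 and 146 CPM, edgeR adjusted p = 0.098). Lfng, a glycosyltransferase that tunes Notch to its ligands, was at 31.1, 35.0 and 31.2 against 24.4, 23.5 and 21.7 CPM (edgeR adjusted p = 0.067). Of the bone morphogenetic protein and TGF-beta list, 21 genes were tested and 0 called, with 6 not overlapping upward and 3 downward (14.0% and 13.3% of all genes). The inhibitor Smad7 (462, 486 and 570 against 327, 382 and 337 CPM) and the target Id1 (455, 455 and 505 against 321, 347 and 380 CPM) lay on the higher side, both with an edgeR adjusted p of 0.0676. The extracellular antagonist Bmper lay on the lower side (10.98, 8.65 and 8.86 against 29.9, 19.5 and 17.6 CPM, edgeR adjusted p = 0.067).

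Lpl, the lipase that GPIHBP1 carries, was at 380, 336 and 410 CPM in the p16-DTR and 157, 247 and 208 CPM in the control libraries (log2 difference 0.88 ± 0.16, edgeR adjusted p = 0.0676). Gpihbp1 itself, a gene of the rule, was at 1063, 943 and 980 against 806, 971 and 864 CPM, so the groups overlapped. Of the 19 tested genes of fatty acid handling 0 were called (0.161% of all genes were), with a median log2 difference of -0.01. Among these 19, 3 did not overlap upward and 3 downward (14.0% and 13.3% of all genes). Of the 20 glucocorticoid-induced genes tested 0 were called, 16 had positive differences (median 0.22), and 7 did not overlap upward and 1 downward (14.0% and 13.3% of all genes). Fkbp5, a co-chaperone of the glucocorticoid receptor, was at 50.0, 36.1 and 109 against 8.30, 21.1 and 14.4 CPM (log2 difference 2.14 ± 0.46, edgeR adjusted p = 0.0831), with p16-DTR replicate 3 highest. Lyve1, a hyaluronan receptor, was at 1093, 920 and 1024 against 464, 635 and 687 CPM (0.77 ± 0.14, edgeR adjusted p = 0.0736). Of the p53 and cell cycle arrest list, 22 genes were tested, with 1 called higher (Cdkn2a) and 1 lower (Plk2), where 0.0871% and 0.0737% of all genes were called. In that list 4 did not overlap upward and 6 downward (14.0% and 13.3% of all genes). Of the guidance list, 29 were tested and 1 called (Sema3f), where 0.161% of all genes were called. In it 5 did not overlap upward and 5 downward (14.0% and 13.3% of all genes). Of the 29 log2 differences 18 were negative (median -0.03), where 7631 of 14928 over all genes tested were. Interferon response genes numbered 30 tested and 0 called, with 7 not overlapping upward and 3 downward (14.0% and 13.3% of all genes), and Oas2 was not on that list. In the lists for junctions, leukocyte adhesion, coagulation, MHC class I and class II presentation, heat shock chaperones, clock genes, matrix and proliferation, 0 genes were called, where 0.161% of all genes were. Upward and downward, 3 and 0 of 17 junction genes did not overlap, 4 and 1 of 19 for adhesion, and 5 and 0 of 14 for coagulation. These numbers were 2 and 1 of 18 for class I, 0 and 0 of 7 for class II, and 4 and 1 of 13 for chaperones. They were 4 and 4 of 20 for clock genes, 5 and 3 of 26 for matrix, and 0 and 0 of 9 for proliferation (14.0% and 13.3% of all genes).

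Apart from Lyve1, marker RNA of other cell types was present at low levels and differed by library. The 6 alveolar type 1 markers summed to 189 to 252 CPM in the p16-DTR and 227 to 262 CPM in the control libraries, and all 6 had negative log2 differences (median -1.17). The 7 fibroblast markers summed to 262 to 319 against 298 to 647 CPM, highest in control replicate 1, and the 7 mural markers to 21.0 to 26.6 against 26.8 to 52.1. All 14 of these had negative differences (medians of -0.54 and -0.93). The 5 lymphatic markers summed to 963 to 1152 against 567 to 773 CPM, most of it Lyve1, and the other 4 had negative differences (median of the 5, -0.69). Lyve1 was not low in the selected cells, at 843 ± 245 CPM in the lowest and 759 ± 229 in the highest Sema3g bin (SD, n = 6 libraries). Its source was not tested. The 7 platelet and erythroid markers summed to 3.35 to 4.51 against 2.91 to 88.6 CPM, with the highest value in control replicate 3. The 7 macrophage and monocyte markers summed to 38.7 to 45.3 against 31.2 to 45.0 CPM, and the 6 tested had positive differences (median 0.68). The 4 neutrophil markers tested were also positive (median 0.32; summed over the list's 5, 29.6 to 50.5 against 19.9 to 51.2 CPM). The 4 airway markers tested were negative (median -0.62; summed over the list's 6, 28.3 to 39.9 against 28.1 to 119 CPM, highest in control replicate 3). No marker of these lists was called, and none was at 0 in every library. The part of such RNA in the differences above was not tested.

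Whether the genotype difference was particular to the arterial side was tested as an interaction, with the library as a block. Against venous-side cells, 3 of 14319 genes passed (0.0210%), and 981 (6.85%) had an unadjusted p under 0.05. Kitl, the ligand of KIT, was at 466, 498 and 410 CPM in p16-DTR and 419, 430 and 379 CPM in control arterial-side cells, without TMM scaling. In venous-side cells it was at 138, 177 and 152 against 252, 240 and 192 CPM. The groups overlapped on the arterial side and not on the venous side, and the difference of the log2 differences was 0.70 ± 0.09 (edgeR adjusted p = 0.0474). Mecom, an arterial transcription factor, was at 55.0, 80.6 and 64.4 against 102, 78.6 and 64.9 CPM in arterial-side cells and at 12.2, 19.4 and 17.7 against 46.6, 35.4 and 35.8 CPM in venous-side cells (0.96 ± 0.14, edgeR adjusted p = 0.0479). Fgd5, an exchange factor for CDC42, was at 362, 451 and 586 against 367, 338 and 375 CPM in arterial-side cells and at 437, 568 and 763 against 313, 314 and 365 CPM in venous-side cells (-0.47 ± 0.07, edgeR adjusted p = 0.0479). In all 3 genes the larger genotype difference was on the venous side. There Mecom (-1.22 ± 0.19, edgeR adjusted p = 0.0204) and Fgd5 (0.87 ± 0.17, edgeR adjusted p = 0.0380) passed the test on their own, and Kitl did not (-0.51 ± 0.13, edgeR adjusted p = 0.0722). Venous-side cells alone had 210 calls among 11079 genes (1.90%).

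Of the 24 genes called in arterial-side cells, 0 passed the interaction with venous-side cells (smallest edgeR adjusted p = 0.230), and 12 of the 23 tested in venous-side cells alone were called there too. Those comparisons use the same 6 mice. Against aerocytes, 0 of 14485 genes passed the interaction with edgeR (1009, or 6.97%, at an unadjusted p under 0.05), and aerocytes alone had 0 calls among 12190 genes. DESeq2 was not run for the interactions.

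**Figure D5:**
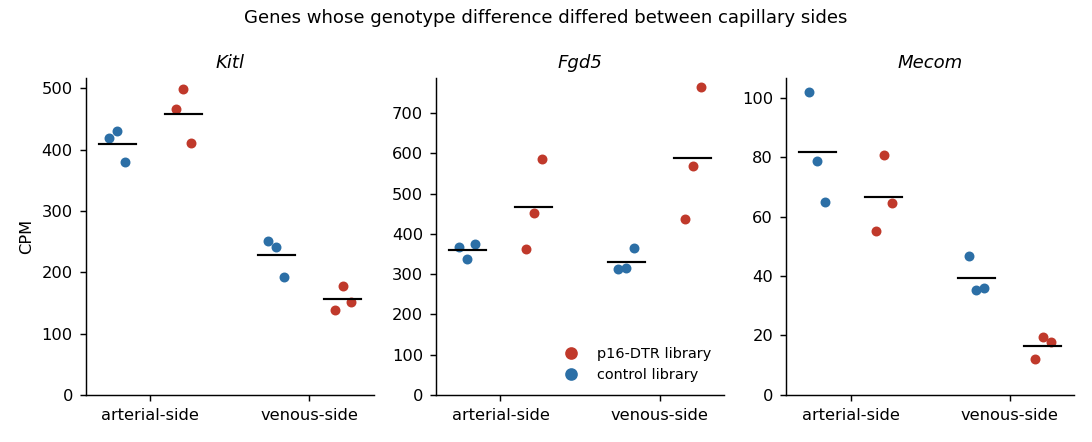
CPM of Kitl, Fgd5 and Mecom in summed arterial-side and venous-side general capillary cells; points are the 3 libraries of each group and bars the means, on axes that start at 0. The groups overlap on the arterial side in all 3 genes and are apart on the venous side.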

How the data were processed

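Raw UMI counts per gene and barcode were deposited by the authors for 6 libraries, without normalization; they were made with Cell Ranger 8.0.1, per the file headers, and mm10 is named in the submitters' processing notes. The annotation release is not given in the sources used here. Of 31054 features, 30934 matched GENCODE M21 (GRCm38), which gave positions.

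Members and gene lists were chosen with earlier results of these data known. UMI counts were summed per library over the selected cells and tested by quasi-likelihood in edgeR 4.0.16 under R 4.3.3 (filterByExpr, TMM, Benjamini-Hochberg over all genes, called at an adjusted p under 0.05). The 9 rule genes and mitochondrial genes were not tested. With 1 library per mouse, the spread is between mice. Shares were compared with exact two-sided permutation tests. DESeq2 1.42.0 was an alternative. Doublets were kept; a caller based on simulated doublets marked those left out in an alternative. The fit was tested on simulated data. Neutrophils were barcodes with at least 10 S100a8 and 10 S100a9 UMIs, Csf3r and no Cdh5.

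Chosen for naming were the population's markers, the genes of the zonation lists, Cdkn2a, Cdkn1a, Hbegf and tdTomato, up to 12 called genes per direction of at least 10 CPM without overlap, up to 4 genes of smallest adjusted p per list and the top 5 per interaction. Not all of these are named above. Of the interaction genes only those that passed are, and some lists, such as the senescence secretome and vasoactive mediators, are not described. The called genes under 10 CPM and the genes with the largest ratios to venous-side cells were named after their values were seen, and the stricter arterial gate was chosen after seeing the data. Python 3.11.15 was used.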

Additional observations from a re-analysis of the deposited data

Results flagged for a closer look

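Kitl had a genotype difference that differed between arterial-side and venous-side cells by 0.70 on the log2 scale (edgeR interaction, adjusted p = 0.0474; 0.0928, 0.12 and 0.0576 without p16-DTR replicate 1, control replicate 1 and control replicate 3). Mecom differed by 0.96 (edgeR adjusted p = 0.0479) and Fgd5 by -0.47 (edgeR adjusted p = 0.0479). Both kept an adjusted p under 0.05 only without p16-DTR replicate 2 or control replicate 2.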

How the results depend on the processing

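The counts of genes called higher and lower (13 and 11) moved to 4 and 4 with RLE size factors or with library size alone, 386 and 448 with DESeq2, 181 and 188 without the filter on low counts, 5 and 4 with at most 5% mitochondrial UMIs, and 46 and 38 without predicted doublets. Equal cell numbers gave 19 and 17, and at least 2 Sema3g UMIs gave 17 and 15. Leaving out 1 library gave 1 to 8 higher and 0 to 19 lower. The replicate numbers did not pair the libraries (correlations of -0.01, -0.09 and 0.14 between same-numbered libraries), and a replicate block gave 2 and 3 calls, 2 of the 24 among them. The interaction with venous-side cells (2 higher, 1 lower) gave 1 and 0 with RLE size factors, 202 and 91 without the filter, 6 and 11 without predicted doublets, and 0 to 29 and 0 to 7 with 1 library left out. That with aerocytes (0 and 0) gave 34 and 27 without the filter, 7 and 8 without predicted doublets, and 0 with any library left out. The cause of these moves was not tested. Of 933 other alternative values for single genes, 0 reversed, 171 lost the call, 73 gained it, 686 kept their side of the threshold, and 3 levels in arterial cells moved with the stricter gate. Only values called in the main setting could lose the call, so the 171 are not a share of the 933. By alternative, from 1 (without p16-DTR replicate 3) to 24 (without the filter) of the 24 main calls held. The difference in arterial-side share of endothelial barcodes ranged from 3.44 to 6.55 percentage points with 1 library left out, and that in the Cdkn2a share from 1.15 to 1.46.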
